A study of Mus musculus with 16 samples.

Results

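The mRNAs described here are transcribed from the mitochondrial genome and encode core subunits of the respiratory chain. They are mt-Nd1, mt-Nd2, mt-Nd4, mt-Nd5 and mt-Nd6 of complex I, mt-Cytb of complex III, mt-Co1, mt-Co2 and mt-Co3 of complex IV, and mt-Atp6 of the ATP synthase. They were taken by name from a table of 13832 genes; all 10 were present, and all 10 were among the 9529 genes with enough counts to test. The table also held the other 3 mitochondrially encoded mRNAs, mt-Nd3, mt-Nd4l and mt-Atp8, and no mitochondrial rRNA or tRNA. Cells of RAW264.7, a mouse macrophage-like line, were left untreated or exposed to lipopolysaccharide (LPS, a bacterial cell wall component) at 100 ng/ml for 15, 30, 45, 60, 75 or 90 min or for 16 h. At each of the 8 time points 1 library of cytoplasmic input RNA and 1 library of ribosome footprints were made from the same lysate, which gave 16 groups of 1 library. Untreated cells were sampled only at 0 min, so LPS cannot be told apart from handling or time in culture.

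Mammalian mitochondrial DNA is transcribed from both strands into long precursors, which are cut, largely at the tRNAs between the genes, into separate mRNAs and ribosomal RNAs. The mRNAs lack the cap of cytosolic mRNAs, carry almost no untranslated sequence, and are read by the mitochondrion's own ribosomes with a genetic code that departs from the standard one. Each product joins a complex with subunits that are encoded in the nucleus and made on cytosolic ribosomes. The lysis buffer held cycloheximide, per the labels' protocols, a drug that arrests cytosolic and not mitochondrial ribosomes, and footprints were taken from the monosome fractions of a gradient. The share of mitochondrial ribosomes recovered by this procedure was not tested.

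The sequences below show where the coding sequences depart from those of nuclear mRNAs and where members touch one another, which bears on how their reads can be told apart. They are taken from the GENCODE M21 transcripts on GRCm38, the assembly that mm10 names, and run 5′ to 3′. Start codons are in capitals in the first 5 lines, and in the next 2 lines the capital T is the lone base left after the last whole codon, which polyadenylation completes to a stop codon.
mt-Nd1, start: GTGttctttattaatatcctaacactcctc
mt-Nd2, start: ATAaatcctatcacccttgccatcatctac
mt-Nd5, start: ATCaatattttcacaacctcaatcttatta
mt-Co1, start: ATGttcattaatcgttgattattctcaacc
mt-Nd6, start: ATGaataattatatttttgttttaagttca
mt-Co3, end: attgatgaggatctT
mt-Cytb, end: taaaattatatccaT

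Of the 10 members, 7 start with ATG and mt-Nd1, mt-Nd2 and mt-Nd5 with GTG, ATA and ATC. A complete TAA ends 5 members and TAG ends mt-Nd1 and mt-Nd2, while mt-Nd4, mt-Co3 and mt-Cytb end in the single T. On the plus strand lie mt-Nd1 (chrM:2751-3707), mt-Nd2 (chrM:3914-4951), mt-Co1 (chrM:5328-6872), mt-Co2 (chrM:7013-7696), mt-Atp6 (chrM:7927-8607), mt-Co3 (chrM:8607-9390), mt-Nd4 (chrM:10167-11544), mt-Nd5 (chrM:11742-13565) and mt-Cytb (chrM:14145-15288). Each is a single exon that is coding along its whole annotated length. On the minus strand lies mt-Nd6 (chrM:13552-14070), the lone member there. Its sequence is 28.1% G and 5.97% C, whereas G makes up 7.996% (mt-Nd2) to 16.1% (mt-Co1) of the other 9. The last 14 bases of mt-Nd5 and of mt-Nd6 overlap on opposite strands. The treatment of strand in counting is unstated in the sources used here, so reads of mt-Nd6 cannot be told apart from reads of RNA that runs antisense to it.

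The end of mt-Atp8 overlaps mt-Atp6 by 43 bases in another frame, and that of mt-Nd4l overlaps mt-Nd4 by 7 bases. Each of these pairs is read from 1 mRNA. The lines below run to the end of the upstream gene, with the start codon of the downstream member in capitals.
mt-Atp8 into mt-Atp6: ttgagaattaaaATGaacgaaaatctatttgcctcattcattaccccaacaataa
mt-Nd4l into mt-Nd4: caacctactacaATGctaa
Nuclear copies of mitochondrial DNA share sequence with several members. Of all 29-base words in a member, about the length of a footprint, the share also found in annotated nuclear transcripts was 100% for mt-Co2, 99.9% for mt-Co3, 99.5% for mt-Atp6, 65.8% for mt-Co1 and 62.8% for mt-Nd4. It was 18.3% for mt-Nd5, 14.9% for mt-Nd2, 9.37% for mt-Nd6, 8.24% for mt-Cytb and 0% for mt-Nd1. None of the 21 nuclear genes that share such words had a row among the 13832. The counting of reads with several matches is likewise unstated, so the levels of the first 5 are uncertain on this account.

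Every library held 6702930 to 6702932 counts, a common total that gives no information on the original depth. Of 10 macrophage markers 9 had at least 10 counts in every input library and Mertk was at 0, with a summed level of 3123 to 4868 CPM, counts scaled to the library total. Summed markers of lymphocytes and of fibroblasts each stayed at or below 0.746 CPM, and those of epithelium at or below 0.149 CPM. The footprint library of 30 min stood apart for the members. On TMM scaling (trimmed mean of M values, which scales libraries to one another by their typical gene) each of the 10 stood there at 1.35 (mt-Co2) to 1.53 (mt-Nd2) times the geometric mean of 15 and 45 min, against a 95th percentile of 1.29 over all tested genes, and on that scale 8 of the 10 were highest in this footprint library. In input the same scaled ratio ran from 0.871 (mt-Nd6) to 1.45 (mt-Nd2), with a 95th percentile of 1.31 over all genes. The members' calls are therefore given with and without the 30 min pair where it changes them. The emphasis on this pair comes from the members' own values, and leaving it out removes a library that stands out for them. Adjusted p-values without it can therefore be too small. They are given only to show how the calls depend on this pair.

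The 10 members together were a small and uneven part of both materials. In input they took 4.21% of all counts in untreated cells, 3.79% to 4.62% from 15 to 90 min and 2.93% at 16 h. In footprints they took 0.424%, 0.334% to 0.527% and 0.319% at those times. Their share of footprints was the smaller one in all 8 pairs.

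Among themselves the members of complex IV were the most abundant per length. On the scale of TMM-scaled CPM per kilobase, input levels averaged 9921 ± 491 for mt-Co1, 9353 ± 1251 for mt-Co2 and 7080 ± 1016 for mt-Co3 (mean ± SD over the 8 time points, which are not replicates). They averaged 4641 ± 902 for mt-Atp6, 2535 ± 747 for mt-Nd1 and 1506 ± 449 for mt-Cytb. Lowest were mt-Nd4 at 867 ± 233, mt-Nd2 at 736 ± 236, mt-Nd5 at 586 ± 155 and mt-Nd6 at 379 ± 79.7. Over the 8 input libraries the ranges of neighbours in this order overlapped in every case. Over 0 to 90 min alone they overlapped for mt-Co1 and mt-Co2, for mt-Nd4 and mt-Nd2, and for mt-Nd2 and mt-Nd5, and did not for the other 6 neighbouring pairs. The order differed in footprints, where mt-Co2 was first (1322 ± 287), mt-Co1 second (943 ± 159) and mt-Nd4 last (84.8 ± 21.0). There mt-Atp6 averaged 543 ± 126, mt-Co3 512 ± 87.7, mt-Cytb 331 ± 99.5, mt-Nd1 166 ± 44.4, mt-Nd5 145 ± 35.4, mt-Nd6 135 ± 22.1 and mt-Nd2 124 ± 40.1. Of those neighbours in footprints, the ranges of mt-Co1 and mt-Atp6 did not overlap and all others did, while over 0 to 90 min alone those of mt-Cytb and mt-Nd1 did not overlap either.

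The members carried few footprints for their RNA. All 10 had a lower density of footprints on input than the typical gene (quasi-likelihood test of edgeR, adjusted over all 9529 genes by the Benjamini-Hochberg procedure, the source of every adjusted p here unless DESeq2 is named). Over all tested genes 85% were called, 41.5% lower and 43.6% higher, so passing in this test is common, and the size of the difference says more. The median member stood at -2.97 on the log2 scale, against 0.02 for all tested genes. The lowest was mt-Nd1, at -3.90 ± 0.11 (± SE here and in all log2 values below; adjusted p = 1.4e-10), and the highest was mt-Nd6, at -1.48 ± 0.14 (adjusted p = 1.3e-05). Between them lay mt-Co3 at -3.79 ± 0.069, mt-Co1 at -3.41 ± 0.073, mt-Nd4 at -3.34 ± 0.063, mt-Atp6 at -3.10 ± 0.058 and mt-Co2 at -2.84 ± 0.061, followed by mt-Nd2 at -2.56 ± 0.060, mt-Cytb at -2.18 ± 0.057 and mt-Nd5 at -2.003 ± 0.074. Only 0.0840% of tested genes had a lower density than mt-Nd1, 0.525% a lower one than mt-Atp6, and 7.60% a lower one than mt-Nd6. Of 905 nuclear genes with at least the mean input count of the scarcest member (1426 counts), 81 stood at or below the highest member, 11 at or below the members' median and 3 at or below the lowest.

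**Figure D1:**
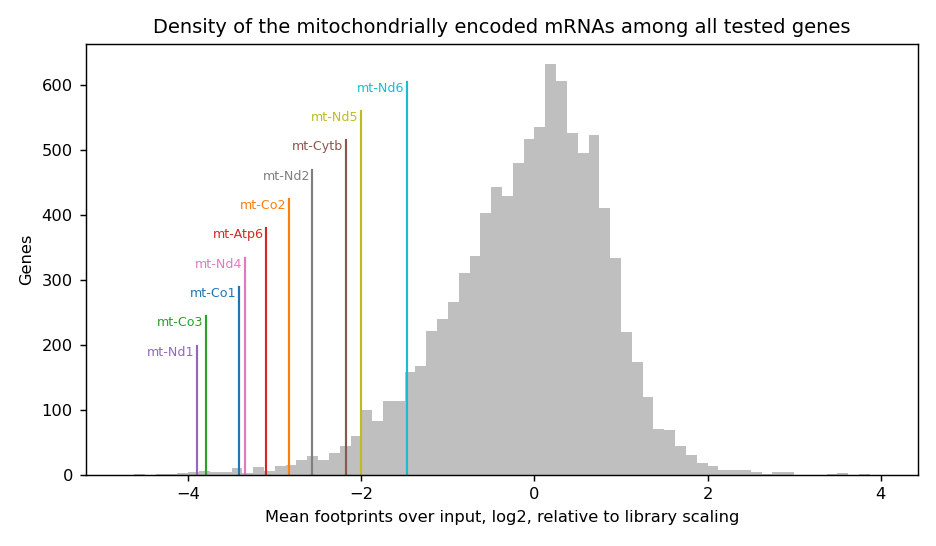
Histogram of the mean log2 ratio of footprints to input over the 8 time points for 9529 tested genes (grey bars, number of genes on the y axis), with each mitochondrially encoded member as a labelled vertical line whose height carries no value. All 10 lines lie left of the bulk of genes, from mt-Nd1 at -3.90 to mt-Nd6 at -1.48.

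The order within the family did not follow the complexes. Complex I held both ends of the range, mt-Nd1 and mt-Nd6, and complex IV spanned mt-Co3 to mt-Co2. In untreated cells mt-Nd1 had 1065 footprint and 16723 input counts, which on TMM scaling gave 6.96 footprints per 100 input counts (95% counting interval 6.54 to 7.41). The median tested gene gave 98.8 to 105 in the 8 pairs. In mt-Nd6 the untreated values were 489 footprint and 1761 input counts, or 30.4 footprints per 100. The members summed gave 11.0 footprints per 100 input counts in untreated cells, 9.47 to 13.7 from 15 to 90 min and 12.2 at 16 h. Every pair of libraries therefore put the sum far below the median gene. The level calls of all 10 held under each of 17 alternatives.

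The next comparison asked whether the RNA of the members changed within 90 min of LPS. No member was called in input, whereas 27.1% of all tested genes were called (15.2% higher and 11.9% lower). DESeq2 also called 0 of the 10. The median member had a fitted excursion, the largest departure of the fitted curve from 0 min, of 0.14, against -0.04 for all genes. That median was 0.38 with a cubic time term. Without the 0 min library, where departures are measured from 15 min, it was -0.18, so its direction depends on the library taken as baseline. In either case 0 members were called. At unadjusted p below 0.05 there were 3716 of all 9529 tested genes and 1 member, mt-Nd6. Its counts were 1761, 1855, 1369, 1290, 1420, 1479 and 1430 from 0 to 90 min. Its excursion was -0.36 ± 0.12 (adjusted p = 0.097), and scaling by total counts brought it past the threshold at -0.44 (adjusted p = 0.039). Input counts of mt-Nd6 were higher at 0 and 15 min than in the 5 later libraries of this window.

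The 5 members of complexes I and III on the plus strand shared another course in the single libraries, though not alone. The largest swing was in mt-Nd2, a membrane subunit of complex I, with input counts of 4836, 6385, 8321, 4967, 5423, 6084 and 6308. It stood at 1.71-fold of untreated at 30 min, 1.05-fold at 45 min and 1.43-fold at 90 min. For mt-Nd1, which lies near the quinone site of complex I, the counts were 16723, 20646, 24141, 16559, 16861, 19112 and 20310, or 1.44-fold, 1.02-fold and 1.33-fold at those times. For mt-Cytb, the haem-carrying subunit of complex III, they were 11832, 13620, 17542, 11349, 11554, 14144 and 14911, or 1.48-fold, 0.986-fold and 1.38-fold. The proton-pumping subunits mt-Nd4 and mt-Nd5 went to 1.5004-fold and 1.53-fold at 30 min and 1.38-fold and 1.44-fold at 90 min. On this scale these 5 members had their highest input value of the 8 libraries at 30 min, and were near untreated at 45 min. The catalytic oxidase subunit mt-Co1 varied far less, between 0.910-fold and 1.06-fold, with counts of 116754, 118207, 112947, 103378, 110267, 109002 and 113027. For mt-Co3 the folds ran from 0.896 to 1.04, for mt-Co2 from 0.918 to 1.13 and for mt-Atp6 from 0.936 to 1.24. None of these swings has a replicate, and the fitted excursions of mt-Nd2, mt-Nd1 and mt-Cytb (0.25 ± 0.38, 0.14 ± 0.26 and 0.23 ± 0.30) were within their errors.

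Footprints on the members were likewise not called over 0 to 90 min. None of the 10 passed, also at an unadjusted p below 0.05 and with DESeq2, against 21.8% of all tested genes (12.7% higher and 9.13% lower). The unadjusted cut-off was met by 3246 of all 9529 genes. In mt-Co1 the footprint counts were 9417, 7852, 11278, 8073, 7667, 7632 and 10300, so 30 and 90 min stood above the other 5 libraries. Counts of mt-Cytb were 2716, 2362, 3515, 2351, 2059, 2036 and 2697, with 30 min above all others. In mt-Nd5 they were 1996, 1685, 2310, 1567, 1270, 1425 and 1854. The summed members stood at 1.36-fold of untreated at 30 min, 0.919-fold at 75 min and 1.30-fold at 90 min. The fitted excursions ran from -0.24 (mt-Nd5) to 0.24 (mt-Nd1), with a median of -0.0055. With a cubic time term that median was 0.42 and without the 0 min library -0.22, again with 0 calls.

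Without the 30 min library 4 members were called in footprints over 0 to 90 min, at a background of 26.7% of genes. Of complex IV, mt-Co1 had a fitted excursion of 0.34 ± 0.097 (adjusted p = 0.0020) and mt-Co3 one of 0.32 ± 0.094 (adjusted p = 0.0068). Of complex I, mt-Nd5 had one of -0.40 ± 0.11 (adjusted p = 0.013) and mt-Nd6 one of -0.28 ± 0.11 (adjusted p = 0.0054). Their excursions with all libraries were 0.20 ± 0.30, 0.21 ± 0.23, -0.24 ± 0.35 and -0.12 ± 0.26 in that order. The 4 calls thus rest on leaving out 1 library. An excursion is the largest departure at any time, not a net change over the window. At 90 min footprints of mt-Nd5 and mt-Nd6 stood above untreated, at 1.13-fold and 1.19-fold. Those of mt-Co1 stood at 1.33-fold there, but at 0.865-fold to 0.946-fold at 15, 45, 60 and 75 min.

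**Figure D2:**
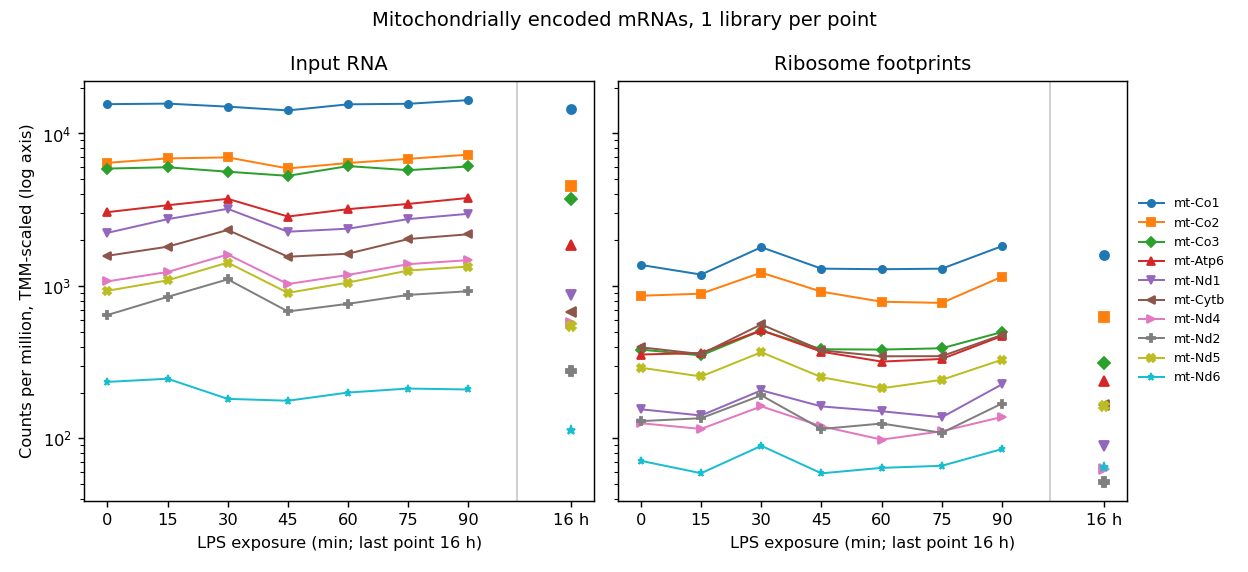
Level of each member by LPS exposure in input RNA (left) and footprints (right), as TMM-scaled CPM on a log axis. Each point is 1 library, lines join 0 to 90 min, and the 16 h library stands apart at the right of each panel. Footprints of all 10 members bend upwards at 30 min, and at 16 h mt-Co1 keeps its level in input (0.930-fold of untreated) while most others lie lower.

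Ribosome density over 0 to 90 min gave no called member either. The test was a joint model of both materials with the time point as a block, in which 1.28% of all tested genes were called (1.14% higher and 0.136% lower), and DESeq2 called 0 of the 10. These 122 calls among all genes became 5 without the 0 min pair, with 0 members called there too. The members' median excursion was -0.10, and 0.18 with a cubic time term. At unadjusted p below 0.05 there were 875 of all 9529 tested genes and 1 member, mt-Nd5, at -0.45 ± 0.16 (adjusted p = 0.48). Its footprints per 100 input counts were 31.3, 23.4, 25.8, 28.0, 20.2, 19.2 and 24.5. The untreated pair was the highest of its 7. For mt-Nd4 the values were 11.7, 9.34, 10.1, 11.7, 8.31, 8.01 and 9.36, and for mt-Nd2 they were 20.1, 16.0, 17.3, 17.0, 16.4, 12.5 and 18.3, with fitted excursions of -0.36 ± 0.16 and -0.35 ± 0.16. In mt-Co1 they were 8.82, 7.57, 12.0, 9.17, 8.29, 8.29 and 11.0. In mt-Co3 they were 6.50, 5.83, 9.09, 7.29, 6.26, 6.79 and 8.20, highest at 30 min as in mt-Co1. The remaining excursions lay between -0.26 (mt-Cytb) and 0.30 (mt-Nd6).

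The density of the other members also moved between pairs without a trend that passed. In mt-Cytb there were 25.1, 19.8, 24.0, 24.3, 21.2, 17.0 and 21.9 footprints per 100 input counts from 0 to 90 min. In mt-Co2 there were 13.4, 12.97, 17.6, 15.6, 12.3, 11.4 and 15.8, and in mt-Atp6 11.7, 10.7, 13.8, 12.99, 10.0, 9.62 and 12.4. In mt-Nd1 there were 6.96, 5.16, 6.45, 7.15, 6.35, 5.01 and 7.62. The 75 min pair was the lowest of these 7 for mt-Cytb, mt-Co2, mt-Atp6 and mt-Nd1, as for mt-Nd2, mt-Nd4 and mt-Nd5. For mt-Nd6 the values were 30.4, 24.0, 49.2, 33.4, 32.1, 31.2 and 40.7, lowest at 15 min and highest at 30 min, where its input count was low and its footprint count the highest of the 8. Of the 10 members, mt-Nd6 had the widest span over the 8 pairs, 2.40-fold from lowest to highest, and mt-Atp6 the narrowest, 1.43-fold.

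**Figure D3:**
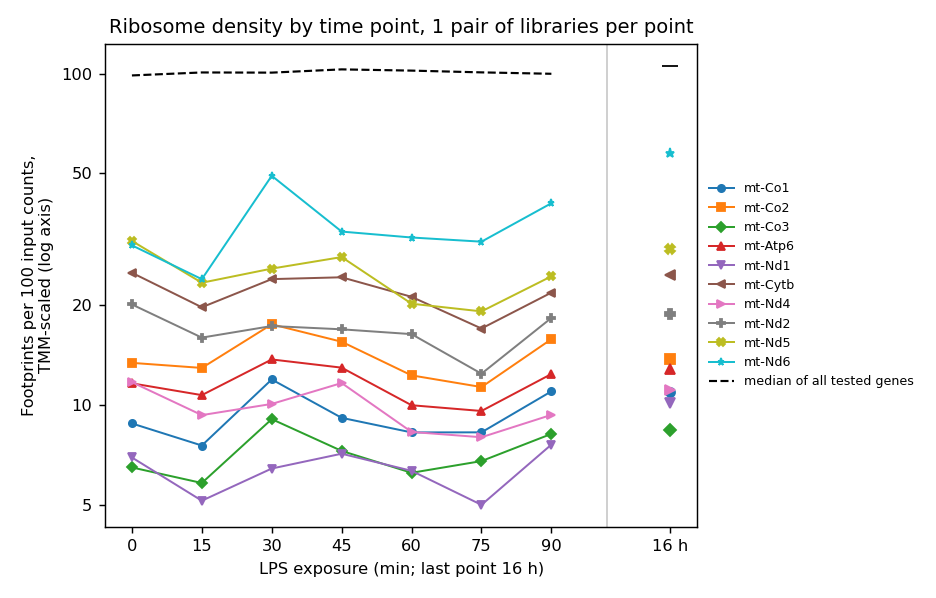
Footprints per 100 input counts, TMM-scaled, for each member by LPS exposure, on a log axis. Each point is 1 pair of libraries, and the dashed line and the dash at 16 h mark the median of all tested genes, at 98.8 to 105. The members keep apart from that median in all 8 pairs, and mt-Nd6 has its highest value, 57.7, at 16 h.

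At 16 h the RNA of most members was lower than in untreated cells. In input 6 of the 10 fell and none rose, where 55.3% of all tested genes were called, 27% lower and 28.3% higher. The median member stood at -0.89 on the log2 scale, against 0.01 for all genes. Of the 6, mt-Nd1, mt-Nd6, mt-Co2, mt-Co3 and mt-Atp6 kept their calls under all 18 alternatives, and mt-Cytb did so under 12. In bulk samples, fewer cells carrying these mRNAs and less of them per cell cannot be told apart.

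The deepest falls among the members lay in complexes I and III. Input counts of mt-Nd1 went from 16723 in untreated cells to 6204 at 16 h, with 16559 to 24141 in the libraries between, so the 16 h library lay below all others. It fell by 1.43 ± 0.32 (adjusted p = 0.016), to 0.392-fold of untreated (95% counting interval 0.381 to 0.404). The minus-strand member mt-Nd6 had 801 counts at 16 h against 1761 untreated and at least 1290 before, and fell by 1.04 ± 0.14 (adjusted p = 7.6e-05). In mt-Cytb 4754 counts at 16 h compared with 11832 untreated and at least 11349 before, a fall of 1.30 ± 0.36 (adjusted p = 0.038). That call was lost in 6 of 18 alternatives, with adjusted p from 0.051 to 0.076: without the count filter, with the square root of time, and without the 15, 60, 75 or 90 min library.

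The other complex I members did not pass, although each had its lowest input count at 16 h. Counts of mt-Nd2 were 4836 untreated and 1961 at 16 h (-1.34 ± 0.43, adjusted p = 0.058). Counts of mt-Nd4 were 8035 and 4064 (-0.96 ± 0.36, adjusted p = 0.086), and those of mt-Nd5 6973 and 3888 (-0.82 ± 0.37, adjusted p = 0.13). Their scatter over 0 to 90 min was wide, as given above for 30 min. Without the 30 min pair all 3 fell (adjusted p = 0.020, 0.0075 and 0.025), which made 9 of 10 members called at a background of 28.6% lower. Without edgeR's robust estimation of the prior spread they also fell (adjusted p = 0.0019, 0.0058 and 0.015), and DESeq2 called mt-Nd2 and mt-Nd4. Of all tested genes 2573 were lower in input without robust estimation and 1973 with DESeq2. Over all 18 alternatives the adjusted p ranged from 0.00082 to 0.12 for mt-Nd2, 0.0022 to 0.15 for mt-Nd4 and 0.0060 to 0.21 for mt-Nd5.

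Complex IV split at 16 h. For mt-Co1 input counts were 116754 untreated and 102718 at 16 h, next to a low of 103378 at 45 min, and the fitted change was -0.05 ± 0.076 (adjusted p = 0.61). That value turned to 0.01 with a linear time term and was called at -0.21 with scaling by total counts (adjusted p = 0.021), a scaling that moved the median of all genes to -0.16. The copper-carrying subunit mt-Co2 went from 48165 to 32306 counts, with at least 43047 before 16 h, and fell by 0.49 ± 0.10 (adjusted p = 0.0014). In mt-Co3 counts went from 44166 to 26274, with at least 38507 before, a fall of 0.61 ± 0.087 (adjusted p = 4.3e-05). The ATP synthase proton channel subunit mt-Atp6 went from 22862 to 13187, with at least 20826 before, a fall of 0.73 ± 0.18 (adjusted p = 0.0099). Within this complex mt-Co1 thus stood at 0.930-fold of untreated, and mt-Co2 and mt-Co3 at 0.709-fold and 0.629-fold. The differences between members were not tested.

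Fitted footprints at 16 h were below those of untreated cells for 9 of the 10 members, but none passed, against 50.6% of all tested genes (24.6% lower and 26% higher). The median member stood at -0.78, against 0.00 for all genes. At unadjusted p below 0.05 there were 3: mt-Nd2 (891 counts untreated and 331 at 16 h; -1.47 ± 0.52, adjusted p = 0.077), mt-Cytb (2716 and 1055; -1.32 ± 0.44, adjusted p = 0.067) and mt-Nd4 (863 and 404; -1.05 ± 0.36, adjusted p = 0.060). The same unadjusted cut-off was met by 5370 of all 9529 tested genes. DESeq2 called these 3 members, with adjusted p of 0.012, 0.018 and 0.022, and called 1889 of all genes lower. In each of them the 16 h library was the lowest of the 8. For mt-Nd1 footprints went from 1065 to 565 (-0.87 ± 0.42, adjusted p = 0.16), and for mt-Nd5 from 1996 to 1035 (-0.92 ± 0.42, adjusted p = 0.14).

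Of the remaining members, mt-Atp6 stood at -0.70 ± 0.41, mt-Co2 at -0.58 ± 0.41 and mt-Co3 at -0.33 ± 0.27 in footprints. Values for mt-Nd6 were 489 counts untreated and 414 at 16 h, or -0.15 ± 0.30, inside its range of 367 to 562 over the other libraries. For mt-Co1 they were 9417 and 10103, or 0.18 ± 0.35, also inside its earlier range of 7632 to 11278. The number of calls depended on the settings. Without the 30 min library 6 members fell, at a background of 26.3% lower: mt-Nd2, mt-Nd4, mt-Nd5, mt-Cytb, mt-Co3 and mt-Atp6, with adjusted p from 3.7e-07 to 0.031. Without robust estimation 5 members fell, where 2309 of all tested genes were lower. These members were mt-Nd1, mt-Nd2, mt-Nd4, mt-Nd5 and mt-Cytb, with adjusted p from 0.0029 to 0.023. The estimates moved little between these settings: mt-Cytb stood at -1.32 with and without robust estimation and at -1.26 without the 30 min library.

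**Figure D4:**
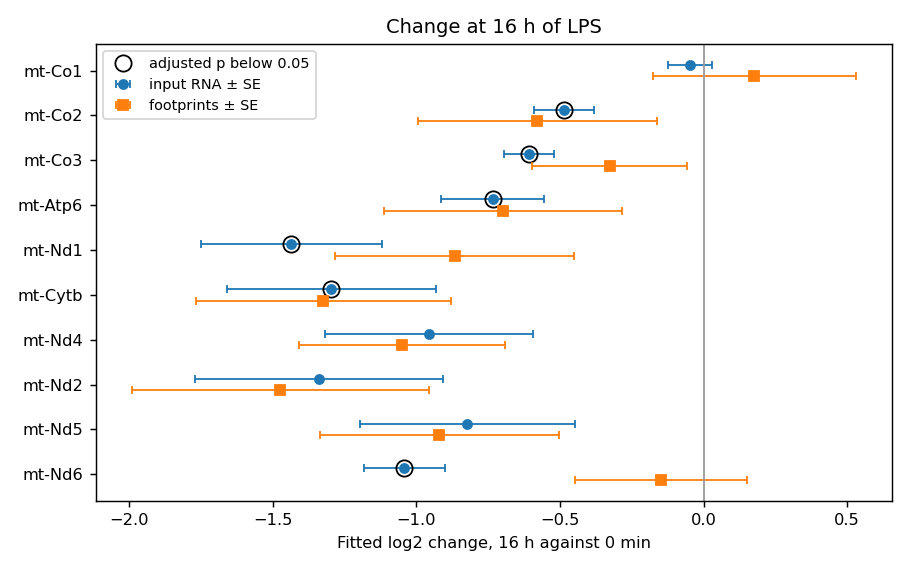
Fitted log2 change at 16 h against 0 min for each member in input (blue circles) and footprints (orange squares), with bars of 1 SE. Black rings mark adjusted p below 0.05, which 6 members have in input and none in footprints. For mt-Nd6 the input lies at -1.04 and the footprints at -0.15.

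The ratio of footprints to input at 16 h asked where both materials had parted. None of the 10 was called, at a background of 0.504% of all tested genes (0.378% higher and 0.126% lower), and DESeq2 called 0. Without the 0 min pair the calls among all genes went from 36 higher and 12 lower to 33 higher and 111 lower, with 0 members among them. An unadjusted p below 0.05 was found for 992 of all 9529 tested genes. The 2 members among them both belong to complex I. In mt-Nd6 there were 57.7 footprints per 100 input counts at 16 h, against 24.0 to 49.2 in the 7 earlier pairs and 30.4 untreated, a change of 0.97 ± 0.40 (adjusted p = 0.45). In mt-Nd1 there were 10.2 at 16 h, against 5.01 to 7.62 before, a change of 0.64 ± 0.24 (adjusted p = 0.37). In both the 16 h pair was the highest of the 8. Without the 30 min pair mt-Nd6 rose by 1.02 ± 0.16 (adjusted p = 0.00033, background 1.5%), and over its 19 alternatives the adjusted p ranged from 0.00033 to 0.66. For mt-Nd1 it ranged from 0.15 to 1.00, with no call. The other 8 members stood between -0.06 (mt-Nd2) and 0.36 (mt-Co3).

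The make-up of the mitochondrial mRNA pool can be read within a library, where the scaling between libraries has no part. As a share of the counts on all 13 mitochondrial mRNAs, mt-Co1 took 35.0% to 39.7% of input over 0 to 90 min and 51.3% at 16 h. In footprints its share was 27.5% to 31.5% and then 44.2%. Shares of mt-Nd1 in input were 5.69% to 7.48% and then 3.10%, those of mt-Cytb 4.03% to 5.43% and then 2.38%, and those of mt-Nd2 1.65% to 2.58% and then 0.980%. In all, 7 members had an input share at 16 h below their earlier range, mt-Co2 and mt-Co3 lay within it, and mt-Co1 above it. Footprint shares at 16 h were below the earlier range for 7 members, within it for mt-Co3, and above it for mt-Co1 and for mt-Nd6 (1.81% against 1.31% to 1.60%). By complex, subunits of complex I took 15.6% to 20.0% of input counts before and 9.38% at 16 h, and those of complex IV 64.3% to 71.2% and then 80.6%. These shares sum to a fixed whole, so a larger share of mt-Co1 by itself lowers the others. The 16 h shares come from 1 library of each material, with no replicate check.

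**Figure D5:**
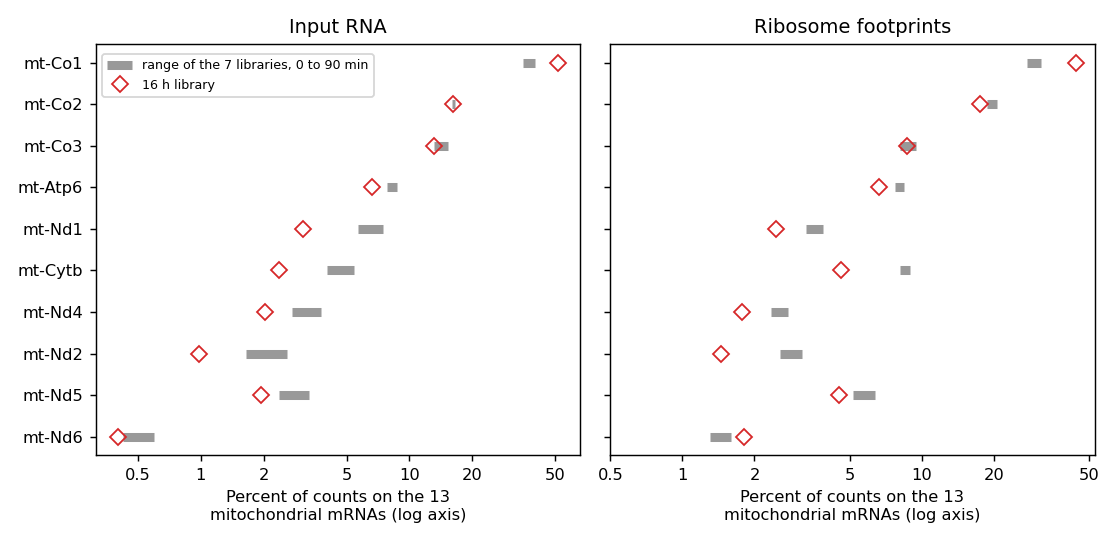
Share of the counts on the 13 mitochondrial mRNAs that each member took, in input (left) and footprints (right), on a log axis. Grey bars span the 7 libraries of 0 to 90 min and red diamonds mark the 16 h library. The diamond of mt-Co1 lies right of its bar in both panels (51.3% and 44.2%), and that of mt-Nd6 lies left of its bar in input and right of it in footprints.

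The 3 other mitochondrially encoded mRNAs gave a comparison within the family. Annotated nuclear transcripts shared 98.1% of the 29-base words of mt-Nd3 and 98.9% of those of mt-Nd4l. The levels of both are therefore uncertain on this account. The largest fall of the 13 in input was in mt-Nd3, a short complex I subunit, by 2.09 ± 0.12 at 16 h (adjusted p = 1.5e-08), and its footprints fell by 1.77 ± 0.52 (adjusted p = 0.043, with 7 of 18 alternatives between 0.051 and 0.074). For mt-Atp8, the partner of mt-Atp6 in the synthase, the input fell by 0.98 ± 0.21 (adjusted p = 0.0068), beside the fall of 0.73 in mt-Atp6. For mt-Nd4l it stood at -0.93 ± 0.34 (adjusted p = 0.067), beside -0.96 in mt-Nd4. In the fit without the 30 min pair mt-Nd4l fell at 16 h in input by 0.89 ± 0.13 (adjusted p = 7.5e-05) and in footprints by 0.81 ± 0.21 (adjusted p = 0.0026), and over 0 to 90 min its input rose by 0.51 ± 0.11 (adjusted p = 0.0061). Genes of a shared mRNA differed in density. Per kilobase mt-Atp8 had 0.508 to 0.625 of the input counts of mt-Atp6 and 2.33 to 3.33 times its footprints, which made its footprints per input 4.18 to 5.63 times as high in the 8 pairs. The same comparison of mt-Nd4l with mt-Nd4 gave 0.407 to 0.454, 1.04 to 1.24 and 2.43 to 2.98. In both pairs the upstream gene had the higher density in all 8 time points. The genes of a pair overlap and differ in length (0.204 kb for mt-Atp8, 0.681 kb for mt-Atp6). The sequence shared with nuclear copies also differs between them (8.52% and 99.5% of 29-base words). For mt-Nd4l and mt-Nd4 it was 98.9% and 62.8%. The part of each of these in the ratio was not tested.

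Factors that replicate mitochondrial DNA, make and translate mitochondrial RNA, or help insert and assemble the products are encoded in the nucleus. Of 57 listed, 49 were tested. Over 0 to 90 min 3 rose and 5 fell as input RNA, and at 16 h 5 rose and 17 fell; for footprints the numbers were 3 and 3, then 7 and 14. The shares of all tested genes called were 27.1% and 55.3% in input and 21.8% and 50.6% in footprints. With both directions together the factors were therefore called no more often than genes at large. At 16 h 27% of all genes were lower and 28.3% higher in input, and 24.6% and 26% in footprints. Falls thus made up more of the factors' calls at 16 h than of all calls, a difference that was not tested. In footprints over 0 to 90 min 5 rose and 5 fell without the 30 min pair, at a background of 26.7%. The medians were -0.10 and -0.19 in input and -0.05 and -0.12 in footprints. The mitochondrial DNA helicase Twnk fell in input by 1.27 ± 0.16 within 90 min (adjusted p = 0.00017) and by 1.42 ± 0.19 at 16 h (adjusted p = 2.7e-05), and in footprints by 1.12 ± 0.20 within 90 min (adjusted p = 0.0022). The mitochondrial exonuclease Mgme1 fell in input by 1.01 ± 0.19 (adjusted p = 0.0051) and 1.66 ± 0.26 (adjusted p = 9.6e-05) in those windows. Its footprints fell by 1.02 ± 0.16 (adjusted p = 0.00057) and 1.71 ± 0.20 (adjusted p = 3.1e-06). These calls held under every alternative. In the opposite direction, Pnpt1, which encodes the polynucleotide phosphorylase of mitochondria, rose in input by 1.17 ± 0.092 at 16 h (adjusted p = 1.1e-07).

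Other named factors belong to replication, assembly and translation. Footprints of Cox20, a chaperone for the mt-Co2 product, fell by 1.36 ± 0.18 at 16 h (adjusted p = 7.8e-06). The DNA polymerase accessory subunit Polg2 fell in input within 90 min by 1.02 ± 0.24 (adjusted p = 0.017) and in footprints at 16 h by 1.12 ± 0.42 (adjusted p = 0.037), and each call was lost in 3 alternatives (adjusted p up to 0.20 and 0.17). Footprints of Taco1, an activator of mt-Co1 translation, fell by 0.61 ± 0.15 within 90 min (adjusted p = 0.017), a call lost in 4 of 19 alternatives (up to 0.14). No listed factor was called in density over either window, also with DESeq2, and 3 and 7 had an unadjusted p below 0.05. That cut-off was met by 875 and 992 of all 9529 tested genes. The inner membrane insertase Oxa1l rose in density over 0 to 90 min without the 30 min pair, by 0.69 ± 0.14 (adjusted p = 0.0057), at a background of 3.44%. With scaling by total counts 10 factors fell in input and 15 in footprints within 90 min, 1 rising in each. Of all 9529 tested genes 1991 were then lower and 1007 higher in input, and 2818 and 723 in footprints. Falls were thus common among all genes under that scaling, and these counts alone do not set the factors apart.

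Most nuclear-encoded partners of the members fell at 16 h. All 72 listed subunits of complexes I, III, IV and V were tested. As input RNA 59 were lower and 1 higher (median -0.55), against 27% and 28.3% of all tested genes, from Uqcr11 of complex III, which fell by 1.12, to Uqcrq of the same complex, which rose by 0.45 (adjusted p = 0.010, lost in 2 of 18 alternatives, up to 0.074). As footprints 52 were lower and 2 higher (median -0.49), against 24.6% and 26% of all genes, with Ndufs7 of complex I at -1.03 and Uqcrq at 0.52. Within 90 min 3 were called lower as input RNA, against 1 higher and 1 lower as footprints. The shares of all genes called in that window were 27.1% in input and 21.8% in footprints. With scaling by total counts 18 subunits fell as input RNA and 35 as footprints. Of all 9529 tested genes 1991 were then lower and 1007 higher in input, and 2818 and 723 in footprints. Without the 30 min pair 6 subunits fell as input RNA, at a background of 13.1% lower. As footprints 2 rose and 3 fell, at a background of 26.7% called in either direction. Of the 72, Atp5g2, Cox7c, Uqcr11 and Uqcrh then rose in density, by 0.43 (Cox7c) to 0.53 (Uqcrh), at a background of 3.44%. Without the 0 min library 0 were called in input, where 2085 of all tested genes were. The largest calls with all libraries were Ndufc1 in input (-0.43, adjusted p = 0.046, lost in 11 of 19 alternatives), Atp5g2 in footprints (0.36, adjusted p = 0.027, lost in 5 of 19) and Ndufs6 in footprints (-0.34, adjusted p = 0.029, lost in 8 of 19). Their density level lay on the other side of the typical gene from that of the members: 68 of 72 stood higher and none lower, where 43.6% of all genes were higher and 41.5% lower, with a median of 0.86 against -2.97. In density at 16 h the cytochrome c oxidase subunit Cox5b rose, by 1.19 ± 0.20 (adjusted p = 0.0066).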

How the data were processed

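Input RNA and ribosome footprints of RAW264.7 cells were counted per gene at 8 time points, with 1 library per material and time point and 16 groups taken from the sample titles. The values used are whole-number read counts per gene, deposited by the authors with a common total of 6702930 to 6702932 per library, per the file headers and the values. A second set of columns, deposited by the authors as a normalised signal, is those counts divided by a factor per library and was used only for that check. The submitters' processing notes name Bowtie 0.12.8, DESeq2 1.18.1 and the mm10 build. Not given in the sources used here are the counting tool, its features, how strand and multiply matching reads were handled, and the step that equalised the totals.

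The test set was genes that reached 10 counts in 4 or more of the 8 libraries of each material. Libraries were scaled by TMM within each fit and tested with edgeR 4.0.16 (glmQLFit and glmQLFTest, robust estimation) in R 4.3.3. P-values were adjusted over all 9529 genes by the Benjamini-Hochberg procedure, at a threshold of 0.05. Per material, the design had minutes, minutes squared and a 16 h term. Change over 0 to 90 min is the joint test of both time terms, and change at 16 h the test of its own term against the fitted 0 min value. Density was tested in a model of both materials with time point as block, and the density level in a model of time point and material. The residual degrees of freedom were 4, 4 and 7. With no replicates, errors come from the departures of libraries from the fitted curve, and the single library of 16 h is assumed to have the spread of the rest. Nothing states that libraries came from separate cultures, so p-values measure only the spread between these libraries. Footprints per 100 input counts and folds of untreated use the same scaling over all 16 libraries, with exact 95% intervals for counting error only. The edgeR fits were tested on simulated counts, and the DESeq2 fits and the values of single libraries were not. DESeq2 1.42.0 served as an alternative, fitted with the same designs.

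The members and gene lists were chosen with earlier results of these data known. All members were named, as were the other mitochondrial mRNAs, the 3 expression factors with the largest called change in each material and window, and the nuclear subunit with the largest called change in each direction. The fixed design did not say whether estimation is robust or over which genes TMM is computed. Both were settled after member results under other settings had been seen, to match the counts of all genes called in an earlier analysis of this table; without robust estimation more members pass at 16 h. Sequences and lengths are from GENCODE M21. Protein sequences were not used here.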

Additional observations from a re-analysis of the deposited data

How the results depend on the processing

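The density level of all 10 members kept its direction and call under each of 17 alternatives, and 0 members changed call in density over 0 to 90 min. In input at 16 h 5 to 9 members fell on leaving out single time points, 9 without robust estimation and 8 with DESeq2. Of all tested genes 2445 to 2726, 2573 and 1973 were lower under these settings, against 2577 in the reported fit. Robust estimation was chosen with these member counts in view, so the call of 6 is the stricter of 2 readings. In footprints at 16 h, where the reported fit called 0 members, 2 were called with total counts, 3 with a linear and 2 with a cubic time term, 5 without robust estimation, 6 with TMM computed once over all genes and libraries and no robust estimation, 3 with DESeq2, and 0 to 6 on leaving out single time points (6 without 30 min, 1 without 60 min, 3 without 90 min). All of these calls were falls. Of all tested genes 2342 were lower in footprints at 16 h in the reported fit. That number was 2798 with total counts, 2362 with a linear and 2353 with a cubic time term. It was 2309 without robust estimation and 2491 with TMM computed once and no robust estimation. With DESeq2 it was 1889, and on leaving out single time points 2145 to 2502. Robust estimation, TMM over all genes and the list counts without 30 min were added after seeing the data. In footprints over 0 to 90 min leaving out single time points gave 0 to 4 members, and in density at 16 h 0 to 1. In input over 0 to 90 min total counts gave 1 member. The fitted change of mt-Co1 in input at 16 h turned to 0.0076 with a linear time term. Members not called in a contrast changed sign in 21 of 190 values of density at 16 h and 15 of 200 of density over 0 to 90 min. In that window they did so in 32 of 190 values of footprints and 19 of 190 of input. None of the changed values was called. Over 0 to 90 min they ran from -0.29 to 0.41 in footprints and from -0.067 to 0.34 in density. Such members are given as ranges, or with their errors.

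Scaling by total counts moved the median of all genes by more than 0.1 in input over 0 to 90 min (to -0.17), footprints over 0 to 90 min (-0.32), input at 16 h (-0.16), density over 0 to 90 min (-0.20) and density level (-0.19). It turned the balance of all calls in input to 1007 higher and 1991 lower over 0 to 90 min, and to 2107 and 3376 at 16 h, and in footprints to 723 and 2818, and 2104 and 2798. The members summed then gave 10.1 footprints per 100 input counts untreated and 10.9 at 16 h, and 11.2 untreated with DESeq2's size factors. Without the time-point block (no replicate block) 0 members were called in either density change and 10 in the level, as with it. The block joins both materials of 1 lysate. No paired analysis of time points was possible because each group holds 1 library and the labels give no replicate numbers. The common total leaves the original depth unknown.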
